A study of Mus musculus with 1 sample.

Results

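Processed pseudogenes are copies of mRNAs that were reverse transcribed and inserted back into the genome. The copies carry no introns, often end in a genomic stretch of A that stems from the copied tail, and are usually far from the parent gene. Retrocopies are most numerous for parents that are strongly expressed in the germ line and the early embryo, such as ribosomal protein and glycolytic genes. Because a young copy and its parent mRNA have nearly the same sequence, a read of 1 of them can be assigned to the other.

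Here 209 processed pseudogenes are described, which are the genes of GENCODE type processed_pseudogene with at least 30 transcripts in the poly(A) tail table of wild-type mouse epiblast-like cells (EpiLCs). A transcript is 1 consensus read with at least 7 passes around the circular template. The table held 12842 genes under that filter, of which 4157 nuclear genes reached 30 transcripts. Among 9941 annotated processed pseudogenes, 584 had any transcript. Since the number of transcripts chose the genes, that number is a description only.

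The cells were wild-type cells of the ICR strain, taken 24 h after embryonic stem cells were moved to EpiLC medium with activin A, bFGF and serum replacement. PAIso-seq, a PacBio method that reads whole transcripts together with their poly(A) tails, gave 246316 nuclear transcripts in replicate 1 and 455660 in replicate 2. Both replicates belong to 1 sample and are marked by barcodes, so no test between groups was possible, and the spread between them may be technical. Cnot8 knockout cells were not analysed here. Of 9 markers of formative or shared pluripotency, all were detected, with 1798 transcripts together. Of 8 naive markers, 7 were detected, with 589 transcripts, 501 of them of Zfp42. Markers of primitive endoderm, mesoderm, trophoblast and fibroblasts were at 1, 0, 6 and 2 transcripts in all.

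The 3′ ends of the copies and of their parents show how alike and how different the sequences are. The 30 bases below hold the last 10 bases that match the parent transcript and the next 20 bases of the genome (GRCm38.p6, RefSeq), 5′ to 3′ on the strand of the gene, and capitals mark the run of A behind the match in the copy. The pairs of Gm15459, Gm13394 and Gm15710 are shown because in these 3 families the copies took nearly all transcripts and the copy shown matches the parent up to its annotated end.
Gm15459, chr5:5781509-5781538, minus strand: attggcaccaAAAAAAAAAAAAAAAAAAAA
Hspa8, chr9:40805191-40805220, plus strand: attggcaccatacagttgtcctgactgagt
Gm13394, chr2:28933410-28933439, minus strand: cgctgcacccAAAAAAAAAAAAAAAAAAAA
Gapdh, chr6:125161834-125161863, minus strand: cgctgcacccacctctccttggttttaatg
Gm15710, chr5:92140232-92140261, minus strand: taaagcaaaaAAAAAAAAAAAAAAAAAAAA
Rpl13, chr8:123105235-123105264, plus strand: taaagcaaaagctgggtttctttgtctttt
In all 3 pairs the 10 matching bases are identical, and the copy goes on in a long run of A that the genome of the parent does not have.

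Of the 209 pseudogenes, 207 had 1 annotated exon, whereas 171 of the 173 distinct parents had more than 1, with a median of 6 exons. The parent was the protein-coding gene with the best BLASTN match to the pseudogene, and 208 pseudogenes reached the required identity of 90% over at least 50% of their length. The exception was Gm44163, whose best match, the tubulin gene Tubb4b, reached 89.9%. The median identity was 99.5%, 153 pseudogenes had at least 99% and 43 had 100%. Of the 208, 193 lay on another chromosome than the parent. On the same strand, 37 pseudogenes overlapped another annotated gene, 3 of them an exon of it.

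Transcripts were assigned to the copies far more often than to the parents. The 209 pseudogenes took 65662 of the nuclear transcripts, or 9.14% in replicate 1 (95% Wilson interval 9.03% to 9.26%) and 9.47% in replicate 2 (9.38% to 9.55%). Reads carry no molecular identifiers, so these intervals cover counting error only. The 173 parents together had 29450 transcripts. Of 208 pseudogenes, 150 had more transcripts than the parent, and 70 had over 10 times as many. The parent fell short of 30 transcripts for 81 pseudogenes and had none for 4, namely Atp6v0c-ps2, Gm3571, Gm7730 and BC002163, which were singled out after their values were seen. The numbers count reads made after amplification of cDNA, not molecules, and were not divided by length.

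The copy of Hspa8 stood far above the others. Gm15459 (ENSMUSG00000100801, chr5:5781615-5783555, minus strand) matched Hspa8, a constitutive heat shock cognate chaperone, with 5 differences over 1941 aligned bases. Its 3830 transcripts in replicate 1 and 8003 in replicate 2 made 18.0% of all transcripts of the 209 pseudogenes. Hspa8 itself had 7 and 43. Gm13394, a copy of the glycolytic enzyme gene Gapdh with 1 difference over 1000 bases, had 1142 and 1136 transcripts, and Gapdh had 6 and 7. Gm15710, a copy of Rpl13 with 1 difference over 636 bases, had 356 and 755 transcripts, whereas Rpl13 had 3 and 0. The copy was above the parent in both replicates, but these 3 families were shown because their copies took nearly all transcripts, so this is a description only.

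Not every parent was outnumbered. Gm9800, a copy of Ptma, the gene of the small acidic nuclear protein prothymosin alpha, had 639 and 1750 transcripts beside 799 and 2041 of Ptma. Hnrnpf and Hnrnpa1, genes of RNA binding proteins, had 1870 and 1845 transcripts, and all annotated copies of each together had 39 and 53. The plot of transcript numbers shows this wide range.

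**Figure D1:**
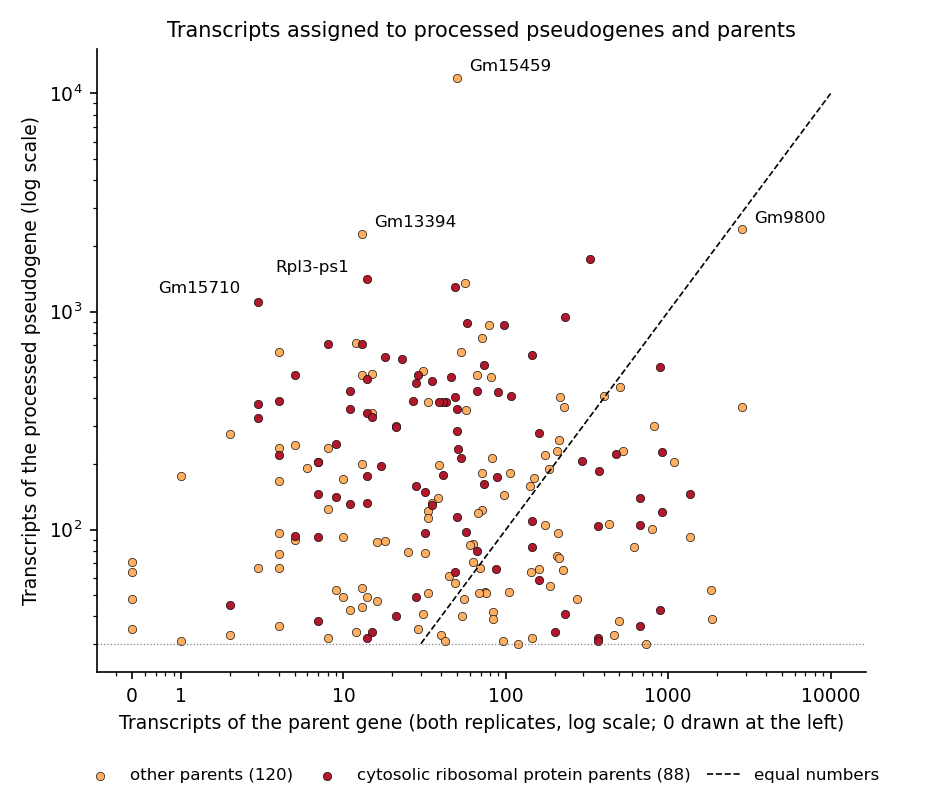
Each point is 1 of 208 processed pseudogenes, with the transcripts of its parent on the horizontal and its own on the vertical axis, both on log scales and with both replicates pooled. Points above the dashed line, 150 in all, have more transcripts than the parent, and the dotted line marks the minimum of 30.

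By family, meaning a parent with all its annotated processed pseudogenes, the median share of transcripts at the copies was 83.1% over 173 families. The copies took over 90% in 68 families and under 50% in 46. Gapdh had 233 annotated copies, of which 13 had transcripts and 3 passed the minimum. In 145 of 173 families, the copy with the most transcripts was also the copy with the highest identity to the parent. Among the 113 families with at least 5 annotated copies, this held for 86, and the copy was among the 3 most similar in 108.

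These pseudogenes also had more genomic A behind the match than other copies of the same parents. Of the 20 bases behind the match, a median of 19 were A in 207 pseudogenes, with quartiles of 16 and 20. In 128 copies of the same parents with 1 to 29 transcripts the median was 16, and in 2835 copies without transcripts it was 11. At 177 ends of parent transcripts it was 3. At least 15 of 20 bases were A in 85.5%, 61.7%, 21.9% and 0.565% of these sets. Median identity to the parent fell in the same order over the copies, from 99.5% to 98.1% and 88.6%. The match itself ended a median of 5, 6.5 and 25 bases short of the end of the parent transcript in these sets of copies. The 20 bases were thus not read at the same place in each set. A stretch of A further on could be missed, most of all in the copies without transcripts. The sets were formed by transcript number, and copies of 1 parent share their sequence, so these values are a description.

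**Figure D2:**
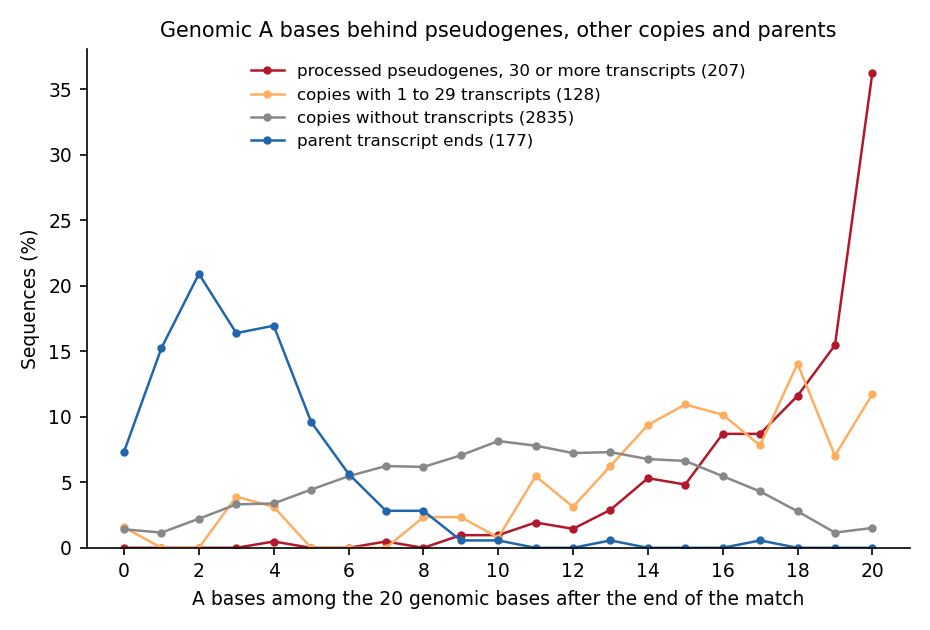
The horizontal axis gives the number of A among the 20 genomic bases behind the match to the parent, and the vertical axis the percentage of sequences in each of 4 sets. The 207 processed pseudogenes with at least 30 transcripts peak at 20 A, the copies without transcripts spread around 11, and the parent ends lie near 3.

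The tails of these transcripts were long. The tail length of a gene is the geometric mean over its transcripts, in nt. The median over the 209 pseudogenes was 97.9 and 96.0 nt in replicates 1 and 2, and that over 3894 protein-coding genes was 76.9 and 76.1 nt. The difference was 20.4 nt (SD 0.763, n = 2), and 21.1 nt with the replicates pooled. The middle 50% of pseudogenes lay between 89.4 and 105.8 nt, above the upper quartile of protein-coding genes, 85.9 nt. The 107 parents with at least 30 transcripts were in between, with a median of 82.4 nt. A gene was called longer where its tail was at least 25% longer than the median of protein-coding genes in both replicates, which 8.49% of all 4157 nuclear genes were. Of the pseudogenes, 89 of 209 (42.6%) were called longer, beside 15 of 107 parents. At least 20% shorter than the median in both replicates, the same fold, were 9.69% of all nuclear genes and 3 of the 209 pseudogenes. With arithmetic instead of geometric means, 32 pseudogenes were called longer, beside a background of 3.27%, and with tails under 15 nt left out 52 were, beside 5.51%.

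Over transcripts instead of genes, the gap was smaller. The median tail was 101 nt at the pseudogenes and 91 nt at protein-coding genes, and 57.7% and 50.2% of tails exceeded 90 nt. Gm15459 lowered the first of these values, since without it the median was 105 nt.

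**Figure D3:**
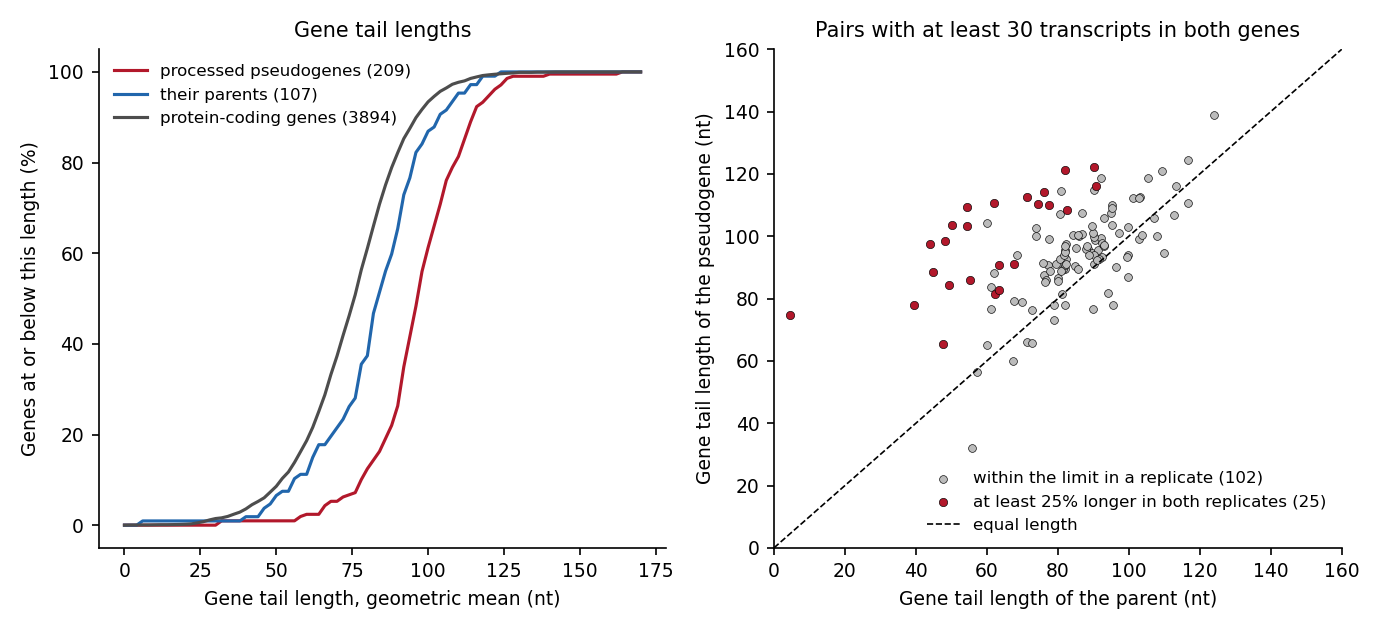
Left, the percentage of genes whose tail length (geometric mean, nt, both replicates pooled) is at or below the value on the horizontal axis, for 209 processed pseudogenes, 107 parents and 3894 protein-coding genes. Right, the gene tail length of each of 127 pseudogenes against that of its parent in nt, with the 25 called longer than the parent in red, all above the dashed line of equal length.

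The longest tails among the 134 pseudogenes with at least 30 transcripts in each replicate were those of Gm12481, a copy of Serf2. They measured 134 and 144 nt in replicates 1 and 2. Gm7336, another abundant copy of Gapdh, followed with 125.4 and 123.3 nt. Gm14303 (Rps29) had 124.3 and 121.2 nt, Gm10080 (Myl6, a myosin light chain) 135 and 117 nt, and Rpl13a-ps1 (Rpl13a) 130 and 120 nt. The replicate values of the other 4 overlapped, and those of Gm12481 lay above all of them but 1 value of Gm10080.

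The shortest was Gm6768, a copy of the ferritin receptor gene Ncoa4, with 59.1 and 66.2 nt. Gm9855, a copy of the DNA glycosylase gene Tdg, had 81.1 and 56.8 nt, with replicates that lay far apart. Gm15387, a copy of the chromatin protein gene Hmgb1, had 70.6 and 73.9 nt. Gm15459 itself, at 74.8 nt (SD 0.336, n = 2), was among the shortest of the 134 although it had the most transcripts. The lower of the replicate values of each of the 5 longest genes was above the higher value of each of these 4. Both sets were picked by tail length in the same reads, so this is a description only.

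Across these 134 pseudogenes, the replicates differed by a median of 4.60 nt, and their gene tails had a Spearman correlation of 0.81 across genes, which are not independent. Near the minimum, Gm15920, Gm44163 and Gm9892, with 30 transcripts each, had tails of 103, 100.1 and 56.4 nt. Just outside, with 29 transcripts each, Gm14539, Gm6851 and Rpl15-ps3 had 126, 89.4 and 28.98 nt. The 3 pseudogenes called shorter were all thinly covered. Rpl28-ps1 (34 transcripts) had 34.4 and 29.5 nt, Rpl19-ps11 (45) had 57.5 and 56.6 nt, and Gm15801 (41) had 57.8 and 60.7 nt.

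The pseudogenes were grouped by the function of the parent. Ribosomal proteins of the cytosol were the parents of 88 pseudogenes with 28465 transcripts. The median of their gene tails was 100.4 nt and 98.5 nt in replicates 1 and 2, and 48 of 88 were called longer (background 8.49%) and 2 shorter (background 9.69%). The 52 protein-coding genes of that group had 91.8 and 87.1 nt, and 9 of them were called longer. Rpl3-ps1 had 94.9 and 90.3 nt, Rps6-ps4 88.0 and 88.3 nt, and Rpl14-ps1 98.6 and 96.8 nt. All 3 copy subunits of the ribosome that are made in large amounts in growing cells. Further ribosomal copies among the 15 pseudogenes with most transcripts were Gm8730 (Rplp0, 677 and 1058 transcripts, 99.05 and 98.6 nt) and Rpsa-ps10 (Rpsa, 295 and 649 transcripts, 99.99 and 98.8 nt). Gm9794 (Rpl23, 313 and 552 transcripts) had 96.7 and 87.1 nt, and Rpl10a-ps1 (Rpl10a, 236 and 477 transcripts) had 96.1 and 91.3 nt. In each of these 4 both replicates were above the median of protein-coding genes.

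The 7 copies of glycolytic genes had a median of 111 nt in both replicates, and 6 of 7 were called longer, beside the background of 8.49%. Gm13394 (Gapdh) had 114 and 111 nt, Pgam1-ps2 (phosphoglycerate mutase) 105 and 115 nt, and Gm5537 (Pgk1, phosphoglycerate kinase) 114 and 110 nt. The 12 protein-coding genes of glycolysis were at 105 and 102 nt, and 7 of 12 were called longer. For 12 copies of genes of the respiratory chain and ATP synthase the median was 112 and 110 nt, with 9 called longer, beside 98.5 and 97.1 nt for 65 protein-coding genes, of which 28 were called longer. Among them Gm12338, a copy of Cox7c, a subunit of cytochrome c oxidase, had 115 and 111 nt.

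The 7 copies of cytoskeletal genes had 111 and 112 nt, 5 called longer, beside 85.5 and 88.8 nt in 35 protein-coding genes, also with 5 called longer. Gm3788, a copy of the actin-sequestering thymosin Tmsb10, was at 111 and 113 nt. None of 4 copies of histone and HMG genes and none of 5 copies of chaperone and prolyl isomerase genes was called longer, where the background was 8.49% and 3 of 15 and 6 of 51 protein-coding genes of these groups were. With so few copies nothing is read from these counts. The medians of these copies were 88.0 and 74.8 nt, and 83.3 and 81.4 nt. The translation factor list, set by symbol, also took in Tpt1, Naca and Btf3, which are not translation factors in the strict sense. For its 8 copies the median was 96.5 and 95.3 nt, with 4 called longer, beside 2 of 59 protein-coding genes. The most abundant of these that also matched its parent without a difference was Tpt1-ps3, with 92.9 and 90.3 nt beside 71.1 and 85.3 nt of Tpt1. Of 9 copies in the RNA binding list, which also took in 2 copies of the modifier gene Sumo2, 4 were called longer. Of 7 in the ubiquitin and proteasome group 1 was, and of 2 in the ferritin and redox group both were. Among the protein-coding genes of these lists it was 6 of 110, 7 of 73 and 7 of 22. No pseudogene had a parent in the pluripotency list, and of the 59 copies outside all lists 10 were called longer. Pgam1-ps2, Gm5537 and Gm12338 were picked as examples after their values were seen.

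The copies were then set beside their own parents, to ask whether tails assigned to the pseudogene differ from those of the gene it came from. Both genes had at least 30 transcripts in 127 pairs, with 107 distinct parents. The median log2 ratio of copy over parent was 0.18 in replicate 1 and 0.19 in replicate 2 (SD 0.0031, n = 2). In 86 pairs the copy was longer in both replicates, in 8 it was shorter in both, and in 33 the replicates differed in direction. Of the pairs, 25 (19.7%) were at least 25% longer at the copy in both replicates, and 0 were at least 20% shorter (0%). The number called longer was 13 when tails under 6 nt were left out, 9 when those under 15 nt were, and 7 with arithmetic means. Without tails under 15 nt the median log2 ratio was 0.089. With replicate 1 alone 6 of 48 pairs were called longer, and with replicate 2 alone 23 of 78. Of the 25, only 6 rested on at least 30 parent transcripts in each replicate. Where the parent had 30 to 99 transcripts, 20 of 66 pairs were called longer, and where it had 100 or more, 5 of 61.

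Among the 44 pairs with at least 30 transcripts of both genes in each replicate, the highest ratio was that of Gm13835 and Psma3, a subunit of the proteasome. The copy had 91.05 and 90.6 nt and the parent 67.5 and 58.9 nt, a log2 ratio of 0.51 (SE 0.18 over transcripts). Gm15542, a copy of Dnaja1, a partner of the Hsp70 chaperones, had 84.1 and 80.5 nt, and Dnaja1 60.5 and 62.7 nt (log2 ratio 0.39, SE 0.072). Hmgn2-ps1 had 90.5 and 75.7 nt beside 68.4 and 57.2 nt of Hmgn2, which codes for a nucleosome binding protein. Gm4332 (Rps20) and Gm8960 (Rps3a1) followed, with log2 ratios of 0.36 and 0.35. In all 5 pairs both replicates had the longer tail at the copy, but the pairs were picked by their ratio in the same reads, so this is a description only.

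At the low end, Gm8292 had 89.1 and 85.9 nt beside 100.8 and 99.5 nt of Rps24 (log2 ratio -0.20, SE 0.069). Ptges3-ps had 83.3 and 81.4 nt beside 90.7 and 95.3 nt of Ptges3, a co-chaperone of Hsp90 (log2 ratio -0.20, SE 0.071). Gm15387 (Hmgb1), Gm12191 (Rpl30) and Gm3379 were at -0.11, -0.11 and -0.10. The best match of Gm3379 was Rpl10-ps3, which the annotation lists as protein-coding. None of these 5 was at least 20% shorter in both replicates. Tails of copy and parent had a Spearman correlation of 0.51 in replicate 1 and 0.42 in replicate 2 over the 127 pairs, which share libraries and in part the parent.

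Over pooled transcripts the middle of the distribution was nearly the same. The median tail was 97 nt at the copies and 98 nt at the parents, and 55.0% and 54.9% of tails exceeded 90 nt. Without Gm15459, the copies had a median of 103 nt.

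Very short tails were rare among the reads counted at the pseudogenes. Tails of 1 to 5 nt made up 0.0533% of transcripts at the 209 pseudogenes in replicate 1 (12 of 22516, Wilson interval 0.0305% to 0.0931%) and 0.213% in replicate 2 (92 of 43146, 0.174% to 0.261%). At protein-coding genes the shares were 0.803% and 2.26%, and at the parents of pairs 0.447% and 1.23%. Replicate 2 thus held more of them in every set, and in both replicates the pseudogenes held fewest. Up to 15 nt, the pooled shares were 0.384% at pseudogenes, 1.54% at parents of pairs and 3.18% at protein-coding genes. In the 375 processed pseudogenes with fewer than 30 transcripts, by contrast, 4.45% of 2137 tails had 1 to 5 nt. The authors describe a filter on the number of A at the start of a tail, and how it acted on these reads was not tested. They also left out reads with no 3′ bases beyond the alignment. A tail that aligned in full to the genomic A behind a copy is therefore missing, here and in the shares by tail length below. The median A run behind the pseudogenes was 17. Tails of 1 to 5 nt made up 0.0733% with runs of 0 to 9 A and 0.0912% with 10 to 19. With 20 to 29 A they made up 0.208%, and with 30 or more 0.147%. How many short tails were lost in this way was not tested.

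The assignment of a transcript to copy or parent moved with its tail length. Over the 173 families, copies took 29.01% of the transcripts with tails of 1 to 5 nt (Wilson interval 25.03% to 33.3%), 45.5% of those with 6 to 15 nt and 60.5% of those with 16 to 30 nt. From 61 nt on, the share was level, at 70.2%, 70.0% and 70.4% in the last 3 length classes. Without the Hspa8 family it went from 24.3% to 67.7%. Of the 50 families with at least 5 transcripts both of up to 15 nt and above, 39 had a lower share at the copies among the short tails and 11 a higher one. The table gives the assigned gene and not the alignment, so whether a transcript came from the copy or from the parent was not tested, and for the 43 pseudogenes with 100% identity it cannot be told apart from the matched sequence.

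**Figure D4:**
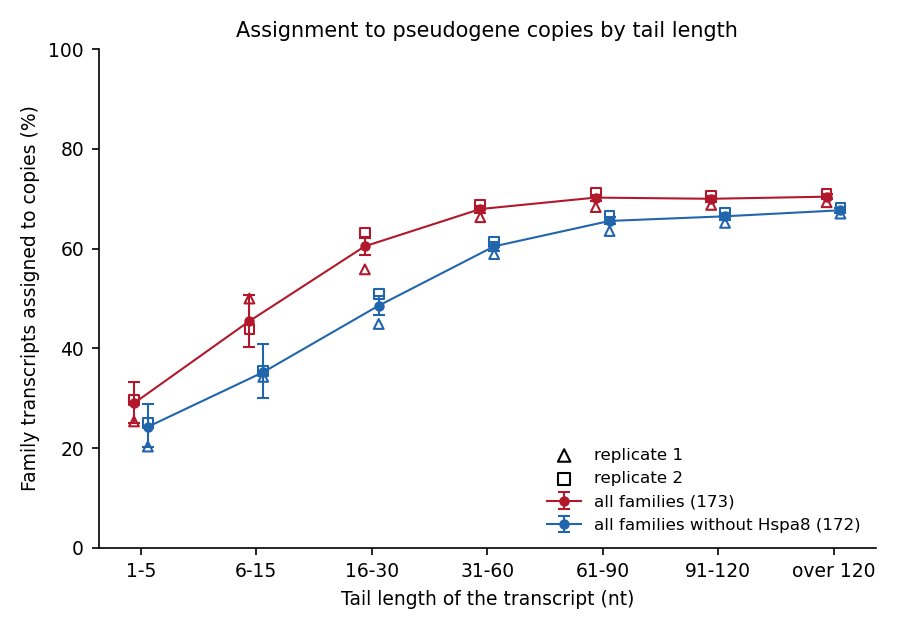
Horizontal axis, tail length class in nt. Vertical axis, the percentage of transcripts of a parent and its annotated processed pseudogenes that were assigned to the pseudogenes, for 173 families and for 172 without Hspa8. Filled points are pooled replicates with 95% Wilson intervals, triangles and squares are replicates 1 and 2, and the share climbs from 29.01% in the shortest class to about 70% from 61 nt on.

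Hspa8 had the widest gap between copy and parent among the 127 pairs. Of the 80 tails of 1 to 5 nt in that family, 41 were assigned to Gm15459 or the other copy with a transcript, and so were all 56 tails of 6 to 15 nt. Between 16 and 120 nt the copies took at least 99.9% in each length class. The parent's gene tail was 38.8 nt in replicate 1, from 7 transcripts, and 3.19 nt in replicate 2, from 43. Some other abundant copies stood beside parents with short and scattered tails, and 3 pairs chosen by these values are given. Rpl14 had 52.0 and 41.7 nt beside 98.6 and 96.8 nt of Rpl14-ps1. Eef1g, a subunit of translation elongation factor 1, had 60.5 and 39.7 nt beside 86.1 and 89.8 nt of its copy Gm4366. Pcna, the sliding clamp of DNA replication, had 64.1 and 51.5 nt beside 82.6 and 87.4 nt of Pcna-ps2. In these 3 pairs the replicates of the parent differed by more than those of the copy, on 56 to 71 parent transcripts. Not all abundant copies were like this. With replicates pooled, Ptma had 92.4 nt beside 93.2 nt of Gm9800, and Rpsa had 103 nt beside 99.2 nt of Rpsa-ps10.

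When all transcripts of a family were counted together, the median over 107 families whose parent had at least 30 transcripts was 91.8 nt, and that of the parents alone was 82.4 nt. Among families with several of the 209 pseudogenes, 32 with 67 pseudogenes, the pooled SD of log2 gene tail within a family was 0.26. Over all 67 the SD was 0.28, and over protein-coding genes 0.41. The pooled value leaned on Rpl28, with an SD of 1.17 that includes the thinly covered Rpl28-ps1, and on Rps24, with 0.50. The next highest SD was 0.27, in the Rps19 family, so most families were narrower than the pooled value.

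**Figure D5:**
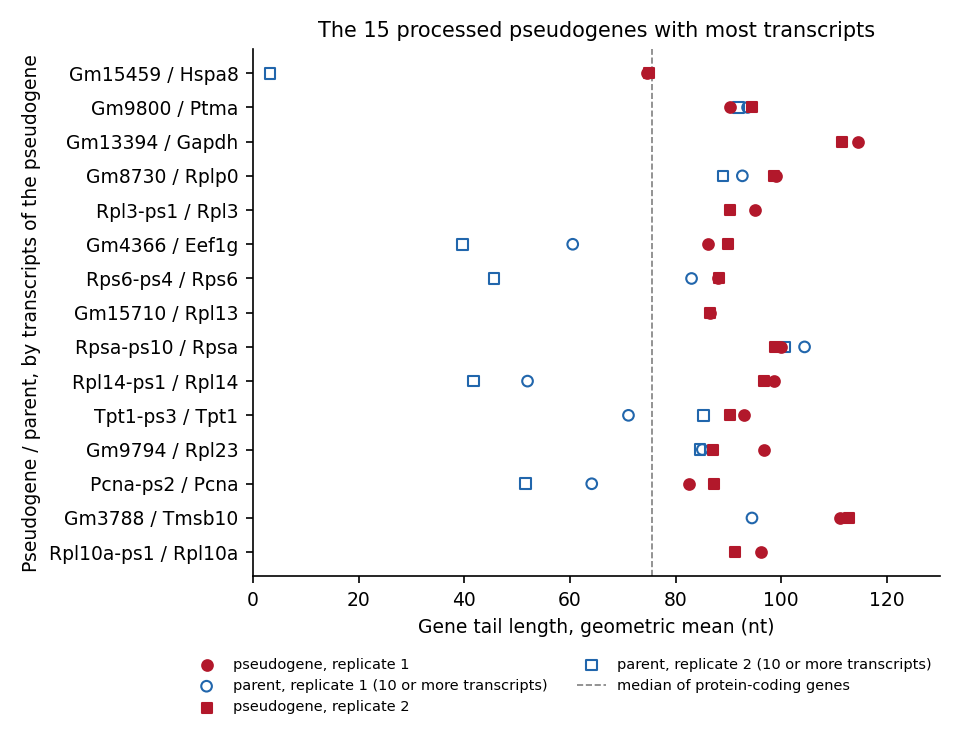
Gene tail length (geometric mean, nt) of the 15 processed pseudogenes with most transcripts, filled, and of their parents, open, in replicate 1 (circles) and replicate 2 (squares). Parents are drawn where they had 10 or more transcripts in that replicate. Replicates of a pseudogene lie close together, at 74.5 to 114 nt, whereas Hspa8, Eef1g, Rps6, Rpl14, Tpt1 and Pcna lie to the left in at least 1 replicate.

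The length of the genomic A stretch did not order the tails. With a run of 0 to 9 A behind the match the median gene tail was 95.6 nt over 43 pseudogenes, with 10 to 19 it was 97.1 nt over 78, with 20 to 29 it was 96.0 nt over 62, and with 30 or more it was 99.6 nt over 24. The Spearman correlation across 207 pseudogenes was -0.021 in replicate 1 and 0.0032 in replicate 2. Of the tails that were kept, 1.78% were shorter than the A run of their own pseudogene. Tails that aligned in full to that run are missing, so this share and the comparison by run are a description only. Annotated length had a correlation of -0.32 and -0.21 with the gene tail.

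Bases other than A were found in 7.95% of the tails at the pseudogenes (9.57% in replicate 1 and 7.11% in replicate 2) and in 10.7% at protein-coding genes (12.4% and 9.78%). Without Gm15459, the share at the pseudogenes was 9.53%. Of 11833 Gm15459 tails, 90 held another base, or 0.761% (Wilson interval 0.619% to 0.934%). Such nearly pure tails were rare elsewhere. Among genes with at least 100 transcripts, the share was below 1% in 8 of 124 pseudogenes and in 3 of 1366 protein-coding genes, and the medians were 9.04% and 10.4%. The 8 were Gm15459, Gm10123 (Ppia), Rps12-ps9, Gm6644 (Akr1b3), Gm7331 (Kxd1), Hmgn2-ps1, Gm12481 and Gm8292, named after their values were seen.

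Gm10123, a copy of the prolyl isomerase gene Ppia, had 1 such tail among 650, and Rps12-ps9 had 4 among 434. The other 5, apart from Gm15459, had none. The largest of these, Gm6644, had 0 of 244 tails, which allows a share of up to 1.23% at 3 counts and of up to 1.55% by the Wilson interval. Their parents were not all alike in this. Rps24, the parent of Gm8292, had 26 of 369 tails with another base (7.05%), Hmgn2 had 4 of 150 and Kxd1 had 4 of 39. Behind the match the 8 pseudogenes had between 12 and 20 A of 20 bases. Whether the bases behind the copy play a part in this was not tested.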

How the data were processed

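Wild-type 24h-EpiLCs were measured by PAIso-seq in 1 sample with 2 barcoded replicates. Replicates were numbered by barcode, since no label ties a barcode to a replicate. The authors made consensus reads, mapped them to mm10 with minimap2 2.17 without secondary alignments, removed repetitive reads, took the soft-clipped 3′ bases as the tail, extended it into adjoining A, left out reads without a tail, and assigned genes with featureCounts 2.0.1. The paper also describes the removal of sequences with too few A in the first bases of the tail. The deposited table holds, for each read, counts of passes and of A, T, C, G and non-A bases of the tail, with no normalization. How reads that map equally well to copy and parent were placed can move counts and tails between them.

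Reads with at least 7 passes were used, and tail length was the count of A plus non-A bases. Gene types and positions came from GENCODE vM21 (GRCm38). Parents were found with BLASTN 2.17.0 (E-value 1e-10) among protein-coding transcripts. Each pseudogene with its flanks in the GRCm38.p6 genome, read with pysam 0.24.0, was then matched again to the transcripts of the parent. The end of that match was used, which need not be the end of the parent transcript. Over 207 pseudogenes it lay a median of 5 bases short of that end, and for Gm4332 it lay 3126 short. Genes of the 12 parent groups, remainder included, were set by symbol. With 1 group no p-value was computed, and genes were called where the tail was at least 25% longer, or by the same fold 20% shorter, in both replicates. Intervals of shares are 95% Wilson intervals. The scripts were tested on simulated data. Named genes were the 15 pseudogenes with most transcripts, the 5 longest and 5 shortest tails, the 5 highest and 5 lowest ratios to the parent, and the 3 genes on each side of the transcript minimum. Of the 5 shortest, 1 is not reported here. The pseudogenes, gene lists and this rule were chosen with earlier results of these data known. Computations ran in Python 3.11.15 with scipy 1.17.1 and pandas 2.3.3, and plots were drawn with matplotlib 3.10.9.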

Additional observations from a re-analysis of the deposited data

How the results depend on the processing

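No paired analysis was possible because all reads belong to 1 group. Of 210 values under the alternatives, 145 stayed within the replicate SD or 1.5 times the main count, 65 moved and 0 changed sign, and among 593 values of named genes 107 moved. Of the former, only the difference to protein-coding genes, the log2 ratio and the Spearman correlation could change sign, since counts, shares and tail lengths cannot. The cause of the changes was not tested.

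The number of pseudogenes fell to 134 with at least 30 transcripts in each replicate. Their share of nuclear transcripts was 9.67% with at least 15 passes, 9.66% for tails of 15 nt or more, 8.79% for a minimum of 30 per replicate, 8.20% without overlaps on the same strand and 7.80% without Gm15459, an alternative chosen after seeing the data. Their median gene tail was 107 nt as the arithmetic mean and 104 nt as the median per gene.

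The difference to protein-coding genes stayed positive, at 20.1 nt with at least 15 passes, 16.8 nt when tails under 6 nt were left out, 15.1 nt when those under 15 nt were, 13.6 nt for the arithmetic mean, 16 nt for the median, 20.1 nt for genes of 50 or more transcripts and 18.5 nt for those of 30 or more in each replicate. Calls longer than the protein-coding median were 52 (25%, background 5.51%) with tails of at least 15 nt, 32 (15.3%, background 3.27%) for the arithmetic mean, 50 (23.9%, background 6.54%) for the median, and 50 of 134 (background 8.90%) with 30 in each replicate. Calls shorter were 5 for the median (background 7.67%), 1 without overlaps (background 9.69%), and 0 with at least 50 transcripts (background 8.82%) or 30 in each replicate (background 6.76%).

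For pairs, the median log2 ratio was 0.16 without a pass filter and with at least 15 passes, 0.11 and 0.089 with tails of at least 6 and 15 nt, 0.090 for the arithmetic mean, 0.092 for the median, 0.14 with at least 50 transcripts, 0.11 with 30 in each replicate, 0.15 without overlaps, 0.24 with parents by symbol and 0.15 with 1 pseudogene per parent. Pairs called longer were 13 and 9 with tails of at least 6 and 15 nt, 7 for the mean, 13 for the median, 14 with at least 50 transcripts, 3 of 44 with 30 in each replicate and 9 of 32 with parents by symbol. Pairs called shorter were 2 without a pass filter, 1 for the median and 2 with at least 20 transcripts. With parents by symbol, 42 pseudogenes had more transcripts than the parent. The Spearman correlation was 0.64 and 0.60 with tails of at least 6 and 15 nt, 0.57 for the mean, 0.42 with at least 20 transcripts, 0.61 with 30 in each replicate and 0.32 with parents by symbol.

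Without replicate 1 or replicate 2, the ranges were 135 to 172 pseudogenes, 8.60% to 9.29% of transcripts, 17.9 to 19.9 nt of difference, 1 to 2 calls shorter, log2 ratios of 0.10 to 0.15, 6 to 23 pairs called longer, 0 to 1 called shorter and Spearman correlations of 0.41 to 0.58.

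Of the 127 pairs, 48 had enough transcripts in replicate 1 alone and 78 in replicate 2 alone.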

Other observations

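GENCODE lists other retrocopies as transcribed processed pseudogenes, which are not among the 209. Of these, 22 had at least 30 transcripts, 12557 in all, with a median gene tail of 93.9 nt in replicate 1 and 95.8 nt in replicate 2. Tails of 1 to 5 nt made up 0.111% of their transcripts. The most abundant were Gm12346 with 3604 transcripts (88.1 and 85.4 nt), Gm15500 with 2201 (95.1 and 94.5 nt) and Rps2-ps10 with 1839 (108.8 and 109.0 nt). In contrast, 6 unprocessed pseudogenes, copies that arose by duplication of DNA, had a median of 62.6 and 60.9 nt and 0.956% of tails of 1 to 5 nt. Among the 17 transcribed processed pseudogenes with at least 100 transcripts, none had fewer than 1% of tails with a base other than A.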
